A study of Mus musculus with 33 samples.

Results

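Regulatory T cells (Treg) of the naive mouse colon that lack ST2 were compared by whether they carried the TSLP receptor: TSLPR+ST2- Treg against TSLPR-ST2- Treg. The rule takes the libraries whose sort label is TSLPR+Il1rl1- or TSLPR-Il1rl1- and whose mouse is labelled naive, which gave 8 of the 33 libraries of the series, 4 in each gate. Each of mice 1 to 4 gave 1 library to each gate, so every TSLPR+ST2- library has a TSLPR-ST2- partner from the same animal. All 8 come from colon cells of Foxp3-yfp mice on the B6 background, which carry a fluorescent reporter at the gene of the Treg transcription factor Foxp3, sorted as CD45+, TCR+, CD4+ and Foxp3+. The protocol gives an age of 7 to 12 weeks for purchased mice, and the sources used here give neither the sex nor any mock treatment. The series also sorted ST2+ Treg from the same 4 mice, and the same gates from 4 mice with colitis-associated cancer (mice 5 to 8). Those mice received azoxymethane (10 mg/kg) and, as the protocol gives for this background, 3 cycles of 7 days of dextran sulfate sodium, and they were taken 2 weeks after the last cycle. The question behind the comparison is what sets TSLPR-bearing colon Treg apart before any tumour is present and without ST2.

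TSLP is a cytokine of epithelial barriers. Its receptor pairs TSLPR, encoded by Crlf2, with the IL-7 receptor alpha chain, encoded by Il7r, and signals through the kinases JAK1 and JAK2 to STAT5. ST2, encoded by Il1rl1, is the receptor for IL-33 and marks a population of tissue Treg in the gut, where Treg range from cells resembling recirculating, lymph-node-type T cells to activated effector cells settled in the tissue.

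Each library was made from 200 sorted cells by full-length amplification of messenger RNA and read with 58-base single reads. Library totals were 5283620 to 6297019 counts in TSLPR+ST2- and 4910225 to 6927679 in TSLPR-ST2- Treg, and 16512 to 16845 and 15836 to 16149 genes had a count. T cell genes were present in both gates: Cd3e was at 780 to 1054 and 615 to 816 CPM (counts per 1000000 of the plain library total) in TSLPR+ST2- and TSLPR-ST2- libraries, and Cd4 at 324 to 409 and 274 to 430 CPM. Levels of genes below are CPM on totals scaled by the TMM method unless plain totals are named, and values after ± are SDs over 4 mice (n = 4 in each gate). The sources used here do not give the strand of the counting, so reads of genes whose annotated exons overlap cannot be told apart. Of the genes named here, that holds for Maf, Ebi3, Tpi1, Gapdh, Klf3, Lef1, Cast, Txnip, Evl, Rnf167, Gpr15, Ccnd2, Il6ra, Rora, Jak1, Cish, Bcl2, Ikzf2, Cd3e, Dusp5, Slc29a1 and Ttn, which overlap a gene on the other strand. It holds for Irf9, Pkm and Igtp, which overlap one on their own strand, and for Foxp3, Hif1a, Satb1, Gata3 and Ccr9, which overlap genes on both. Gapdh, Tpi1, Pkm and H2-Q7 also have near-identical copies in the genome that could take or give reads.

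The sorting genes followed the gates. Crlf2 (chr5:109554709-109558993, - strand) was at 41.3, 45.5, 36.2 and 41.2 CPM in the TSLPR+ST2- libraries of mice 1 to 4 and at 10.7, 8.76, 11.3 and 10.3 CPM in the TSLPR-ST2- libraries, with no overlap. Since TSLPR chose the cells, this fold of 4.01 describes the gate and is no finding. Il1rl1 (chr1:40429570-40465415, + strand) was near 0 on both sides, at 0 to 5.67 CPM in TSLPR+ST2- and 0 to 3.34 CPM in TSLPR-ST2- Treg.

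Of 14861 genes tested, 181 differed between TSLPR+ST2- and TSLPR-ST2- Treg at an adjusted p below 0.05 (edgeR quasi-likelihood test with the mouse as a block and Benjamini-Hochberg adjustment), which is 1.22% of the genes. There were 100 higher (0.673%) and 81 lower (0.545%) in TSLPR+ST2- Treg. The higher genes had a median fold of 2.18 and the lower ones a median fold of 1.57, and 59 of the 100 but 11 of the 81 differed more than 2-fold. All 181 went the same way in 4 of 4 mice, as 23.9% of all tested genes did. For 180 of the 181 the 4 libraries of one gate all lay beyond the 4 of the other, against 11.4% of all tested genes (6.53% all above and 4.84% all below). More cells of a kind and more of an RNA per cell cannot be told apart in such bulk samples. By counts not corrected for length, the median level over the 8 libraries was 125 CPM for the 100 higher genes, 357 CPM for the 81 lower ones and 19.9 CPM for all genes tested, with median exon lengths of 2851.5, 5095 and 3766.5 bases.

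The number of calls changed with the mice included and with a term for markers of another cell type. The counts were 55, 71, 89 and 63 genes without mouse 1, 2, 3 and 4 in turn, and 37 of the 181 passed with each mouse left out. The summed markers of macrophages and dendritic cells were 996, 1020, 1218 and 1185 CPM of the plain total in TSLPR+ST2- libraries of mice 1 to 4, and 75.8, 775, 39.9 and 232 CPM in TSLPR-ST2- libraries. With the log2 of that sum as a covariate, an alternative chosen after seeing the data, 14 of the 181 passed, 11 higher and 3 lower. All 181 kept their sign there, the median size was 0.883 of the main one, and the median standard error (SE) was 0.221 against 0.159 on the log2 scale. The 14 were Capg, Rilpl2, Cst7, Tigit, Ttn, Slc29a1, Icos, Ighm, S100a11, Pdcd1 and, by the gate, Crlf2 (higher) and Itga6, Ly6c1 and Klf2 (lower). The part of that RNA in the other differences was not tested.

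**Figure D1:**
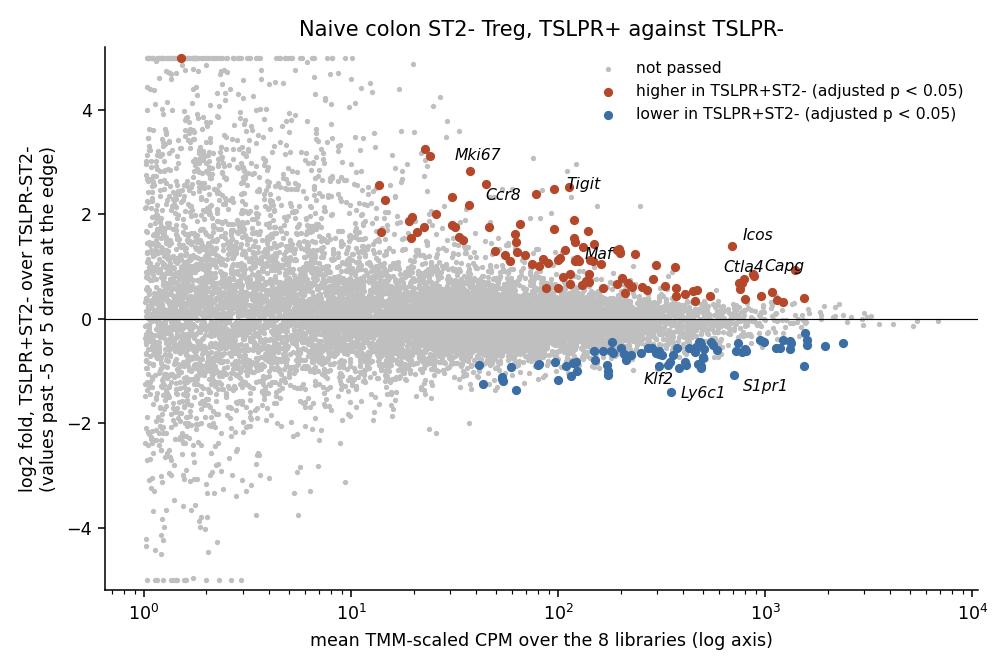
Log2 fold of TSLPR+ST2- over TSLPR-ST2- naive colon Treg (vertical axis) against the mean level over the 8 libraries in TMM-scaled CPM (horizontal log axis), for genes with a mean above 1 CPM; red and blue points passed the test as higher or lower and grey points did not. The higher genes reach further from 0, with median folds of 2.18 for the 100 higher and 1.57 for the 81 lower genes.

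Genes of effector and tissue Treg had the most higher members of any list read here. Of 22 tested members of that list, 9 were higher in TSLPR+ST2- Treg and 0 lower (40.9%, against 1.22% of all genes tested). The median log2 fold was 1.38, against 0.04 over all genes tested. The 9 were Icos, Tigit, Maf, Nfil3, Ebi3, Batf, Ccr8, Hif1a and Rora. A positive log2 fold was found for 21 of the 22 members, against 7935 of all 14861 genes tested. Members of a list were read in the same 8 libraries, so their signs are not independent, here and in the lists below. The lists were chosen with earlier results of these data known, so their counts and ranking are a description and no test. Icos, Tigit, Maf and Nfil3 passed with each of the 4 mice left out, while Ccr8 and Hif1a lost the call without each of the 4 mice in turn. Batf lost it without mouse 1 or 4, Ebi3 without mouse 2 or 4, and Rora without mouse 1, 2 or 4 and by limma-voom.

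Tigit (chr16:43648867-43664146, - strand), an inhibitory receptor for nectin-family ligands that marks strongly suppressive Treg, was at 209, 197, 104 and 140 CPM in TSLPR+ST2- Treg of mice 1 to 4 and at 25.2, 32.7, 29.8 and 26.7 CPM in TSLPR-ST2- Treg. Every TSLPR+ST2- library lay more than 3-fold above its partner, with the widest spread among the TSLPR+ST2- libraries. The log2 fold was 2.49 (SE 0.31, edgeR adjusted p = 0.000114). Icos (chr1:60977927-61000320, + strand), a CD28-family costimulatory receptor of effector Treg, was at 1107, 1051, 808 and 1059 CPM in TSLPR+ST2- Treg and at 362, 404, 394 and 366 CPM in TSLPR-ST2- Treg. The groups did not overlap and mouse 3 was the lowest of the TSLPR+ST2- group, with a log2 fold of 1.39 (SE 0.16, edgeR adjusted p = 7.67e-05).

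Maf (chr8:115682942-115707794, - strand), the transcription factor c-Maf that drives IL-10 in T cells, read 194, 168, 180 and 164 CPM in TSLPR+ST2- Treg and 70.8, 76.3, 49.2 and 61.3 CPM in TSLPR-ST2- Treg (log2 fold 1.47, SE 0.20, edgeR adjusted p = 0.000217). Nfil3, a basic leucine zipper repressor, read 126, 104, 103 and 74.7 CPM in TSLPR+ST2- Treg and 26.5, 41.9, 28.0 and 21.0 CPM in TSLPR-ST2- Treg (log2 fold 1.83, SE 0.27, edgeR adjusted p = 0.000506). For both genes the lowest TSLPR+ST2- library stood well clear of the highest TSLPR-ST2- library. Batf, the AP-1 family factor needed by tissue Treg, averaged 363 ± 50.3 CPM in TSLPR+ST2- Treg and 212 ± 16.03 CPM in TSLPR-ST2- Treg (edgeR adjusted p = 0.00558). Ebi3, a subunit of IL-35 and IL-27, averaged 31.4 ± 10.7 and 10.1 ± 3.35 CPM in TSLPR+ST2- and TSLPR-ST2- Treg (edgeR adjusted p = 0.00558).

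Several well-known effector genes of the list had large log2 folds that did not pass the test. Gzmb, the cytotoxic protease granzyme B, was at 75.6, 339, 57.1 and 283 CPM in TSLPR+ST2- Treg and at 0, 97.8, 16.5 and 53.0 CPM in TSLPR-ST2- Treg (edgeR adjusted p = 0.498). Il10, the anti-inflammatory cytokine, was at 87.4, 76.5, 75.1 and 48.7 CPM in TSLPR+ST2- Treg and at 5.85, 10.8, 6.26 and 80.0 CPM in TSLPR-ST2- Treg (edgeR adjusted p = 0.616). Gzmb was higher in TSLPR+ST2- Treg of every mouse with several-fold spread inside each group, and for Il10 mouse 4 went the other way. These 2 genes were singled out after their values were seen. Klrg1, Prdm1 and Irf4 also had positive log2 folds without passing (2.83, 1.42 and 1.27, edgeR adjusted p = 0.17, 0.20 and 0.41).

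**Figure D2:**
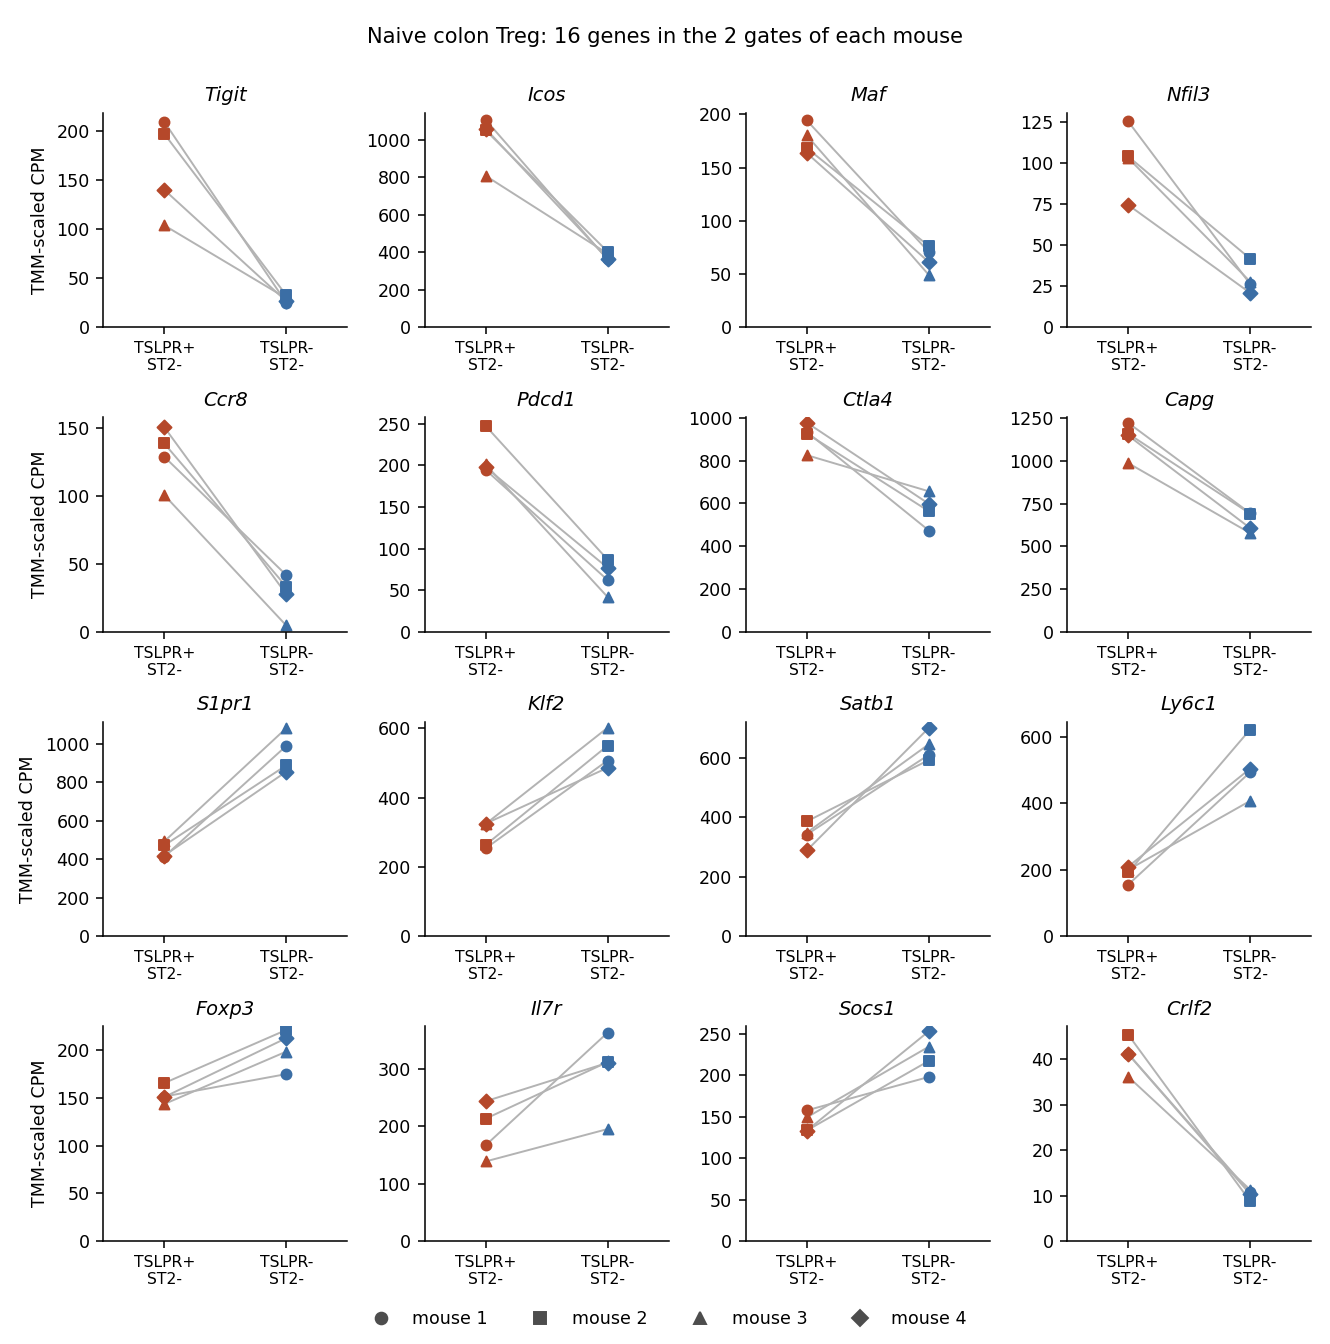
TMM-scaled CPM (vertical axes, from 0) of 16 genes in TSLPR+ST2- (red, left) and TSLPR-ST2- (blue, right) Treg, with symbols for mice 1 to 4 and a line joining the 2 libraries of a mouse. Tigit, Icos, Maf, Nfil3, Ccr8, Pdcd1, Ctla4 and Capg lie higher in TSLPR+ST2- Treg of each mouse; S1pr1, Klf2, Satb1, Ly6c1, Il7r, Foxp3 and Socs1 lie lower, of which Il7r and Foxp3 did not pass the test.

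Of 13 tested inhibitory receptors and ectoenzymes, 3 were higher and 0 lower (23.1%, against 1.22% of all genes tested), with a median log2 fold of 0.76. Besides Tigit these were Pdcd1, which encodes PD-1, and Ctla4, which strips costimulatory ligands from antigen-presenting cells. Pdcd1 (chr1:94038305-94052553, - strand) read 195, 248, 201 and 198 CPM in TSLPR+ST2- Treg and 62.3, 87.0, 42.0 and 77.1 CPM in TSLPR-ST2- Treg (log2 fold 1.68, SE 0.24, edgeR adjusted p = 0.000506). Ctla4 (chr1:60887000-60915832, + strand) read 934, 926, 825 and 977 CPM in TSLPR+ST2- Treg and 474, 564, 657 and 598 CPM in TSLPR-ST2- Treg (log2 fold 0.68, SE 0.10, edgeR adjusted p = 0.000658). In both genes the groups stood apart, Ctla4 by a smaller factor. Of the 13 tested members of the TNF receptor and CD28 family list, only Icos and Ctla4 passed (15.4%). Tnfrsf4, which encodes OX40, averaged 1300 ± 224 CPM in TSLPR+ST2- Treg and 957 ± 136 CPM in TSLPR-ST2- Treg without passing (edgeR adjusted p = 0.0843).

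The gene with the smallest p was Capg (chr6:72544391-72562983, + strand), an actin-capping protein that is part of the Treg signature in mice. It was at 1222, 1158, 987 and 1148 CPM in TSLPR+ST2- Treg and at 694, 691, 578 and 607 CPM in TSLPR-ST2- Treg, a shift of similar size in every mouse (log2 fold 0.81, SE 0.09, edgeR adjusted p = 4.09e-05). Cst7 (chr2:150570415-150578944, + strand), cystatin F, an inhibitor of the cathepsins that activate granule proteases, was at 261, 252, 196 and 165 CPM in TSLPR+ST2- Treg and at 90.9, 85.1, 69.7 and 76.4 CPM in TSLPR-ST2- Treg (log2 fold 1.42, SE 0.18, edgeR adjusted p = 0.000148). S100a11, a calcium-binding protein, averaged 95.9 ± 8.22 CPM in TSLPR+ST2- Treg and 41.8 ± 10.8 CPM in TSLPR-ST2- Treg. These genes separated the groups without overlap. Rilpl2, a Rab-binding regulator of ciliary traffic, averaged 191 ± 40.9 CPM in TSLPR+ST2- Treg and 72.6 ± 5.69 CPM in TSLPR-ST2- Treg. Acot7, an acyl-CoA thioesterase, averaged 195 ± 14.6 and 89.9 ± 20.1 CPM, and Glrx, glutaredoxin, 275 ± 37.1 and 110 ± 6.34 CPM, in TSLPR+ST2- and TSLPR-ST2- Treg. All of these passed the edgeR test with each of the 4 mice left out.

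Genes of naive and central T cells, which recirculate through lymph nodes, had the most lower members. Of 17 tested members, 8 were lower in TSLPR+ST2- Treg and 0 higher (47.1%, against 1.22% of all genes tested). The median log2 fold was -0.73, against 0.04 over all genes tested. Among the 8 were S1pr1, Klf2, Klf3, Ly6c1, Lef1, Satb1 and Il6ra. The first 4 of these passed with each mouse left out, while Lef1, Satb1 and Il6ra each lost the call without at least 2 of the mice in turn. One member, Cd28, had a positive log2 fold (0.28, edgeR adjusted p = 0.37).

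S1pr1 (chr3:115710433-115715072, - strand), the receptor through which T cells sense the sphingosine 1-phosphate that draws them out of tissue, was at 415, 473, 494 and 420 CPM in TSLPR+ST2- Treg of mice 1 to 4 and at 990, 889, 1082 and 856 CPM in TSLPR-ST2- Treg. Klf2 (chr8:72319033-72321656, + strand), the transcription factor that maintains S1pr1, was at 254, 263, 324 and 325 CPM in TSLPR+ST2- Treg and at 507, 550, 601 and 486 CPM in TSLPR-ST2- Treg. Both genes were lower in TSLPR+ST2- Treg of each mouse, with no overlap and little spread. Their log2 folds were -1.08 (SE 0.14, edgeR adjusted p = 0.000151) and -0.88 (SE 0.12, adjusted p = 0.000278).

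Ly6c1 (chr15:75044018-75048830, - strand), a surface antigen of resting and memory T cells in mice, had the largest fall among the 81 lower genes, at 156, 193, 200 and 210 CPM in TSLPR+ST2- Treg and 494, 622, 408 and 505 CPM in TSLPR-ST2- Treg (log2 fold -1.40, SE 0.23, edgeR adjusted p = 0.0019). Its sequence is close to that of Ly6c2, so reads may have been split or lost between the pair. Lef1, a TCF-family factor of naive T cells, averaged 273 ± 36.6 CPM in TSLPR+ST2- Treg and 441 ± 30.6 CPM in TSLPR-ST2- Treg. Satb1, a chromatin organiser, averaged 342 ± 40.2 CPM in TSLPR+ST2- Treg and 638 ± 47.7 CPM in TSLPR-ST2- Treg. Other genes of the same cells did not pass: Ccr7, the lymph node chemokine receptor, had a log2 fold of -0.46 (edgeR adjusted p = 0.37) and Tcf7, which encodes TCF-1, one of -0.36 (adjusted p = 0.42).

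Another 10 lower genes were among those with the smallest p. Itga6 (chr2:71745616-71858416, + strand), the laminin-binding integrin alpha 6, read 111, 108, 127 and 119 CPM in TSLPR+ST2- Treg and 211, 205, 268 and 242 CPM in TSLPR-ST2- Treg (log2 fold -0.99, SE 0.14, edgeR adjusted p = 0.000354). Tsc22d3, which encodes the glucocorticoid-induced protein GILZ, averaged 332 ± 42.3 CPM in TSLPR+ST2- Treg and 643 ± 98.4 CPM in TSLPR-ST2- Treg. Neither gene had overlapping groups. Txnip, an inhibitor of glucose uptake, averaged 635 ± 30.2 CPM in TSLPR+ST2- Treg and 978 ± 22.7 CPM in TSLPR-ST2- Treg. Gimap3, a small GTPase of lymphocyte survival, Cytip, which binds the integrin regulator cytohesin-1, and Evl, an actin regulator of the Ena/VASP family, had log2 folds of -0.47, -0.46 and -0.79. Ripor2, an inhibitor of RhoA, Cast, the calpain inhibitor calpastatin, Atp1b3, a sodium pump subunit, and Rnf167, a ubiquitin ligase, had log2 folds of -0.86, -0.76, -0.56 and -0.57. Of these 10 genes, Atp1b3 alone lost the call with a mouse left out (edgeR adjusted p = 0.0571 without mouse 1).

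Among the genes of the TSLP pathway, Crlf2 alone passed as higher, and its product chose the cells. Of 15 tested type I cytokine receptor genes, Crlf2 was higher, by the gate, and Il6ra, the IL-6 receptor, lower. These are 13.3% of the list, against 1.22% of all genes tested. Il7r (chr15:9505788-9530176, - strand), the partner chain of TSLPR, was at 167, 213, 139 and 244 CPM in TSLPR+ST2- Treg and at 363, 312, 195 and 311 CPM in TSLPR-ST2- Treg. It was lower in TSLPR+ST2- Treg of 4 of 4 mice, the groups overlapped, and it did not pass (log2 fold -0.62, SE 0.17, edgeR adjusted p = 0.0698). Among 19 tested genes of JAK and STAT5 signalling and its targets, 0 were higher and 2 lower (10.5%). Their median log2 fold was -0.47. A positive log2 fold was found for 4 of the 19, against 7935 of all 14861 genes tested, and these signs are not independent. The pair that passed was Socs1, a feedback inhibitor of cytokine receptors, and Ccnd2, cyclin D2.

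Socs1 (chr16:10782240-10785536, - strand) was at 158, 133, 149 and 133 CPM in TSLPR+ST2- Treg and at 198, 217, 235 and 253 CPM in TSLPR-ST2- Treg (log2 fold -0.65, SE 0.15, edgeR adjusted p = 0.0339). Ccnd2 averaged 1119 ± 74.4 CPM in TSLPR+ST2- Treg and 1511 ± 105 CPM in TSLPR-ST2- Treg (log2 fold -0.43, SE 0.10, edgeR adjusted p = 0.034). Neither had overlapping groups, but Socs1 lost the call without each of the 4 mice in turn and with no filter on low counts, and Ccnd2 without mouse 1, 2 or 4. Jak1, the kinase bound by the IL-7 receptor chain, averaged 791 ± 27.7 CPM in TSLPR+ST2- Treg and 1120 ± 179 CPM in TSLPR-ST2- Treg without passing (edgeR adjusted p = 0.0557). Cish, a classical STAT5 target, had a log2 fold of -0.50 (adjusted p = 0.20) and Bcl2, the survival factor, one of -0.73 (adjusted p = 0.19).

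Homing receptors moved both ways. Of 24 tested members, 4 were higher in TSLPR+ST2- Treg (Gpr15, Ccr8, Ccr4 and Ccr2) and 2 lower, S1pr1 among them. The share that passed was 25%, against 1.22% of all genes tested. Gpr15, the receptor that brings T cells to the large intestine, was at 102, 76.1, 95.6 and 94.7 CPM in TSLPR+ST2- Treg and at 53.6, 24.0, 31.6 and 14.1 CPM in TSLPR-ST2- Treg (log2 fold 1.63, SE 0.34, edgeR adjusted p = 0.0123). Ccr8 (chr9:120092114-120094906, + strand), a chemokine receptor of activated tissue Treg, was at 129, 139, 101 and 151 CPM in TSLPR+ST2- Treg and at 41.9, 33.4, 4.74 and 27.8 CPM in TSLPR-ST2- Treg (log2 fold 2.40, SE 0.51, edgeR adjusted p = 0.0157). In both, every TSLPR+ST2- library lay above every TSLPR-ST2- library. Ccr4, the receptor for CCL17 and CCL22, was at 156, 120, 123 and 186 CPM in TSLPR+ST2- Treg and at 48.6, 43.2, 43.7 and 43.4 CPM in TSLPR-ST2- Treg (log2 fold 1.72, SE 0.37, edgeR adjusted p = 0.0158). Ccr2, the receptor for CCL2, averaged 185 ± 27.2 and 53.3 ± 24.0 CPM in TSLPR+ST2- and TSLPR-ST2- Treg (edgeR adjusted p = 0.0212), and myeloid cells express it too. Gpr15 lost the call without mouse 2, 3 or 4 and by limma-voom, Ccr2 without mouse 1, 3 or 4 and with no filter on low counts, and Ccr8 and Ccr4 without each of the 4 mice in turn. Ccr9, the small intestine homing receptor, was at 68.6 and 75.8 CPM on average in TSLPR+ST2- and TSLPR-ST2- Treg (edgeR adjusted p = 0.99).

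Promoter sequence was read for genes that moved together, 250 bases before to 50 after the start from RefSeq (build GRCm38.p6). The letters searched, on both strands, were based on families named above. They were TGANTCA, a loose form of the AP-1 site used by Batf, CACCC, the core of Klf sites, and TTCNNNGAA, the STAT site. N stands for any base, so a TGANTCA match can differ from the strict AP-1 site. Windows were matched for 74 of the 100 higher and 67 of the 81 lower genes. The promoters of 2 higher genes, Cst7 and Ccr4, and of 2 lower genes, Klf2 and Tsc22d3 (1 of its annotated starts), are shown as examples with a match in each, given 5′ to 3′ with the match in capitals (in Klf2, GGGTG is CACCC on the other strand).
Cst7 (chr2:150570165-150570464, + strand): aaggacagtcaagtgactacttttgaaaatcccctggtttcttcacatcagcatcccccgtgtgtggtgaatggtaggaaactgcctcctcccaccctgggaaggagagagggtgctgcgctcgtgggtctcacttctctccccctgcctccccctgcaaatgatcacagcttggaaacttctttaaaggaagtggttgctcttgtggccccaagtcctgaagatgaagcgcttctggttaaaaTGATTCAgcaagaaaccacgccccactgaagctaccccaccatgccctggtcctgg
Ccr4 (chr9:114496495-114496794, - strand): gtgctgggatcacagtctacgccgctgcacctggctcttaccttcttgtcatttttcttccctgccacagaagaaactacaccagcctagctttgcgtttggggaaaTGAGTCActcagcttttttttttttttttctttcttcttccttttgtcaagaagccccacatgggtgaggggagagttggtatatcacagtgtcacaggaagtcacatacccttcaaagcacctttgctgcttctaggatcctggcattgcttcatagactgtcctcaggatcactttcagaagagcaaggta
Klf2 (chr8:72318812-72319111, + strand): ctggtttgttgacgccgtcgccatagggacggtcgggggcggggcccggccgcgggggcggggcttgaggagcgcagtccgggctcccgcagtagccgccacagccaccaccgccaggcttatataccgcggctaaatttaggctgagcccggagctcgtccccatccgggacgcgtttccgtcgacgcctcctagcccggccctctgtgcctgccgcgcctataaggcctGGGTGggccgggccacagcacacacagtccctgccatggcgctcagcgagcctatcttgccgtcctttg
Tsc22d3 (chrX:140548522-140548821, - strand): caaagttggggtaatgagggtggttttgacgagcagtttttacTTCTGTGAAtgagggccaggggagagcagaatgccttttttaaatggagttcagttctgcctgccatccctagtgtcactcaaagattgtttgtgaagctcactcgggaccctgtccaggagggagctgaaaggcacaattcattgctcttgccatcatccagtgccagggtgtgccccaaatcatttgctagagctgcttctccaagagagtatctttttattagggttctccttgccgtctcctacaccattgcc
The matches begin 6 bases before the start in Cst7, 143 in Ccr4, 19 in Klf2 and 207 in Tsc22d3. TGANTCA was found in 8 of 74 higher genes (10.8%) and 6 of 67 lower genes (8.96%), against 6.16% of all tested genes with a window. CACCC was found in 75.7% of the higher and 76.1% of the lower genes, against 66.3% of all, and TTCNNNGAA in 4.05% and 8.96%, against 8.29%. Of all 300-base windows of tested genes, 5.14% held TGANTCA, 62.9% CACCC and 6.87% TTCNNNGAA. A match describes letters and is not evidence of binding.

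Of 20 tested cell cycle genes, 2 passed, both higher in TSLPR+ST2- Treg (10%, against 1.22% of all genes tested). All 20 had a positive log2 fold (median 1.46), against 7935 of all 14861 genes. The 20 were read in the same 8 libraries, so their signs are not independent. Mki67 (chr7:135689784-135716361, - strand), which encodes Ki-67, a protein of cycling cells, was at 45.5, 72.7, 80.1 and 61.5 CPM in TSLPR+ST2- Treg and at 4.83, 18.4, 7.95 and 8.34 CPM in TSLPR-ST2- Treg (log2 fold 2.82, SE 0.70, edgeR adjusted p = 0.0448). Mcm6, a subunit of the replicative helicase, was at 470.5, 528, 449 and 495 CPM in TSLPR+ST2- Treg and at 254, 229, 283 and 212 CPM in TSLPR-ST2- Treg (log2 fold 0.99, SE 0.19, edgeR adjusted p = 0.0071). Both separated the groups, yet Mki67 lost the call without each of the mice in turn and with no filter on low counts, and Mcm6 without mouse 1, 2 or 4. Rrm1, of ribonucleotide reductase, averaged 137 ± 37.8 and 56.4 ± 8.10 CPM in TSLPR+ST2- and TSLPR-ST2- Treg (edgeR adjusted p = 0.0634).

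Of 16 tested genes of glycolysis, 3 were higher and 0 lower (18.8%, against 1.22% of all genes tested). The median log2 fold was 0.40, against 0.04 over all genes tested. Tpi1, triosephosphate isomerase, was at 295, 349, 322 and 357 CPM in TSLPR+ST2- Treg and at 123, 141, 151 and 147 CPM in TSLPR-ST2- Treg (log2 fold 1.23, SE 0.16, edgeR adjusted p = 0.000147). Gapdh was at 880, 929, 899 and 917 CPM in TSLPR+ST2- Treg and at 539, 727, 579 and 595 CPM in TSLPR-ST2- Treg (log2 fold 0.58, SE 0.08, edgeR adjusted p = 0.000375). Neither gene had overlapping groups, and both passed without each mouse in turn. Pkm, pyruvate kinase, averaged 1092 ± 34.2 and 807 ± 55.8 CPM in TSLPR+ST2- and TSLPR-ST2- Treg (edgeR adjusted p = 0.0232) and lost the call without each of the mice in turn and with no filter on low counts. Ldha, lactate dehydrogenase, did not pass, at 1720 and 1507 CPM on average in TSLPR+ST2- and TSLPR-ST2- Treg (adjusted p = 0.66).

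Of 25 tested members of the antigen receptor pathway, 1 was higher and 1 lower (8%, against 1.22% of all genes tested). The higher one was Zap70, the kinase recruited to the activated receptor. Zap70 read 269, 293, 256 and 272 CPM in TSLPR+ST2- Treg and 133, 195, 200.5 and 180 CPM in TSLPR-ST2- Treg (log2 fold 0.63, SE 0.11, edgeR adjusted p = 0.00183, and 0.0695 without mouse 1). Nr4a1 and Egr1, early response genes of receptor triggering, had log2 folds of 0.21 and -0.11 (edgeR adjusted p = 0.98 and 0.99). None of the 18 tested immediate early and heat shock genes passed by edgeR, and their median log2 fold was -0.11.

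Of 23 tested interferon response genes, 2 passed (8.7%, against 1.22% of all genes tested), both lower in TSLPR+ST2- Treg, and the other 21 did not. The median log2 fold was -0.54, and 2 of the 23 were positive, against 7935 of all 14861 genes tested. These signs are not independent. Igtp, an interferon-inducible GTPase, was at 680, 680, 677 and 545 CPM in TSLPR+ST2- Treg and at 1056, 940, 901 and 930 CPM in TSLPR-ST2- Treg (log2 fold -0.57, SE 0.10, edgeR adjusted p = 0.00351). Irf9, a subunit of the type I interferon transcription complex, averaged 460 ± 37.1 and 628 ± 53.6 CPM in TSLPR+ST2- and TSLPR-ST2- Treg (edgeR adjusted p = 0.0417). Irf9 lost the call in 7 of 13 alternatives: without mouse 1, 2 or 4, in the fits of the 16 naive and of the 8 libraries, with no filter on low counts and by limma-voom (adjusted p up to 0.278). Igtp showed no overlap and kept its call without each mouse.

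Of 13 tested Th1 genes, the chemokine gene Ccl5 was the only one that passed (7.69%, against 1.22% of all genes tested). It was at 34.3, 121, 46.8 and 39.2 CPM in TSLPR+ST2- Treg and at 4.83, 28.4, 7.79 and 14.9 CPM in TSLPR-ST2- Treg (log2 fold 2.18, SE 0.33, edgeR adjusted p = 0.000658, but 0.313 by limma-voom). Mouse 2 was the highest in both gates. Of 7 tested Th2 genes, the 2 that passed (28.6%) were the receptors Ccr8 and Ccr4, while Gata3 had a log2 fold of -0.29 (edgeR adjusted p = 0.82). Of 10 tested genes of peripherally induced colon Treg and Th17 cells, Maf and Rora passed as higher (20%). Rora, which encodes RORalpha, averaged 108 ± 23.3 and 53.5 ± 4.36 CPM in TSLPR+ST2- and TSLPR-ST2- Treg (edgeR adjusted p = 0.0337). The lists of the IL-1 receptor family (12 tested), TGF-beta signalling (15) and cholesterol synthesis (18) had no member that passed by edgeR, with median log2 folds of 0.22, -0.20 and 0.11.

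**Figure D3:**
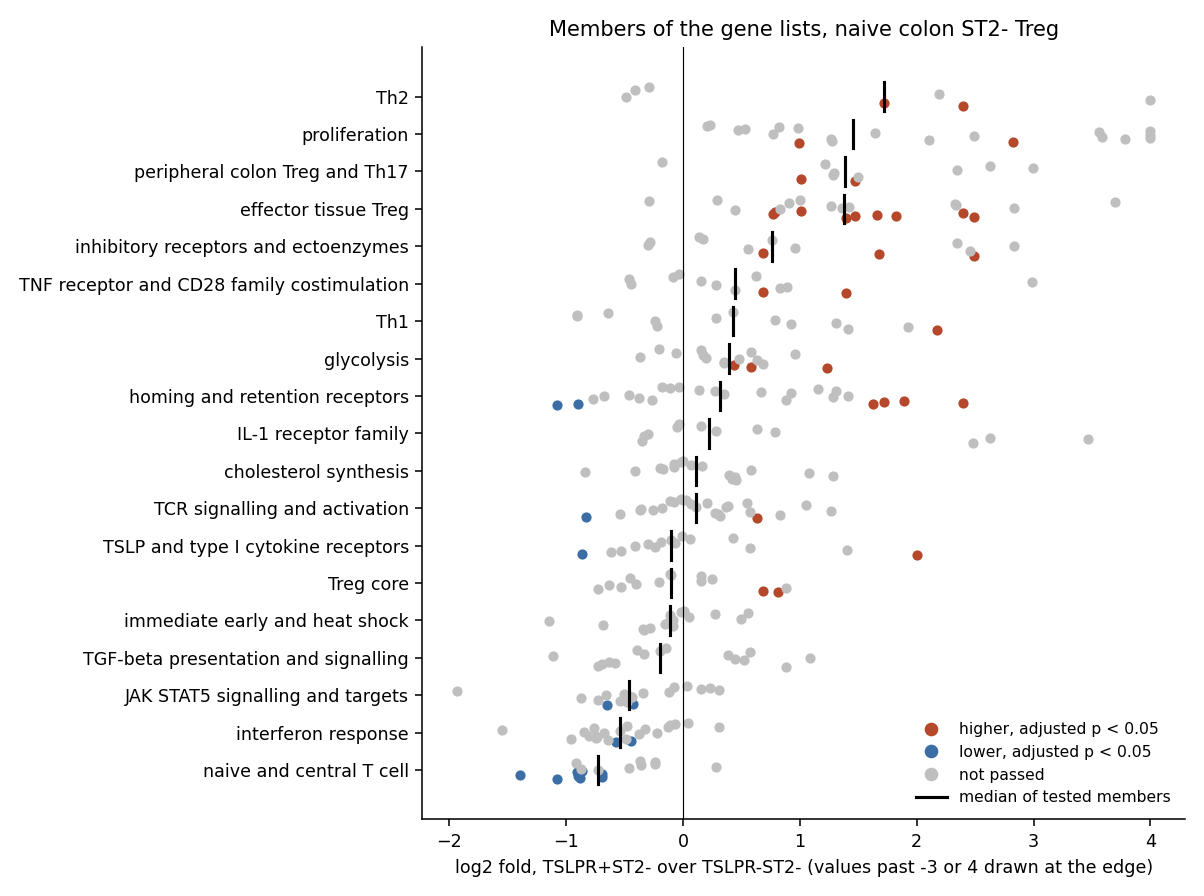
Log2 fold of TSLPR+ST2- over TSLPR-ST2- naive colon Treg for each tested member of 19 gene lists, 1 list per row, with members that passed in red (higher) or blue (lower) and a bar at the median of the list. Effector tissue Treg genes (9 of 22 higher, median 1.38) and naive and central T cell genes (8 of 17 lower, median -0.73) hold the most members that passed; a gene can be in more than 1 list.

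Of 14 tested core genes of Treg identity, Capg and Ctla4 were higher and 0 lower, with a median log2 fold of -0.11. Those 2 are 14.3% of the list, against 1.22% of all genes tested. Foxp3 (chrX:7573644-7595245, + strand) was at 152, 166, 144 and 151 CPM in TSLPR+ST2- Treg and at 175, 222, 199 and 213 CPM in TSLPR-ST2- Treg. It was lower in TSLPR+ST2- Treg of each mouse, with no overlap, but did not pass (log2 fold -0.40, SE 0.20, edgeR adjusted p = 0.512). Ikzf2, which encodes Helios, averaged 673 and 582 CPM, and Il2ra, which encodes CD25, 691 and 748 CPM, in TSLPR+ST2- and TSLPR-ST2- Treg (adjusted p = 0.61 and 0.93). Gpr83, a receptor gene of the Treg signature, averaged 423 ± 49.4 and 702 ± 75.8 CPM in TSLPR+ST2- and TSLPR-ST2- Treg (adjusted p = 0.0583).

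Of the markers of other cells, Ighm and Rora passed the test. They are 8.33% of the B and plasma cell list and 11.1% of the innate lymphoid list, against 1.22% of all genes tested. Of 17 tested macrophage and dendritic cell markers none passed by edgeR, but 16 had a positive log2 fold and the median was 2.57. Over all 14861 genes tested, 7935 had a positive log2 fold. Lyz2, lysozyme, was at 61.8, 476, 233 and 220 CPM of the plain total in TSLPR+ST2- libraries of mice 1 to 4 and at 11.0, 115, 3.94 and 108.5 CPM in TSLPR-ST2- libraries, while Itgax had 0 counts in all 8. Of 12 B and plasma cell markers, Ighm passed as higher, at 1664 to 1970 CPM in TSLPR+ST2- and 812 to 1073 CPM in TSLPR-ST2- Treg, while Cd79a was at 5.87 to 37.4 and 3.32 to 40.3 CPM of the plain total. The epithelial marker sum was 59.8 to 94.0 and 30.8 to 64.3 CPM, with Epcam at 44.3 to 59.9 and 12.02 to 32.6 CPM. The sum of CD8, NK and gamma-delta T cell markers was 148 to 407 and 78.8 to 218 CPM, with 0 counts of Ncr1 in all 8. That sum includes Gzmb, named above with the effector genes, at 188.5 and 41.8 TMM-scaled CPM on average in TSLPR+ST2- and TSLPR-ST2- Treg. Cd8a averaged 7.43 and 22.3 and Cd8b1 30.4 and 42.7 TMM-scaled CPM, each higher in TSLPR+ST2- Treg of 0 mice. Of the 11 tested members 4 had a positive log2 fold, with a median of -0.61. Of 9 tested markers of innate lymphoid cells, Rora passed, and none of the tested markers of conventional helper cytokines (4), neutrophils (3), mast cells (2) or stroma (3) did by edgeR. The part of these markers in the differences above was not tested beyond the covariate fit.

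**Figure D4:**
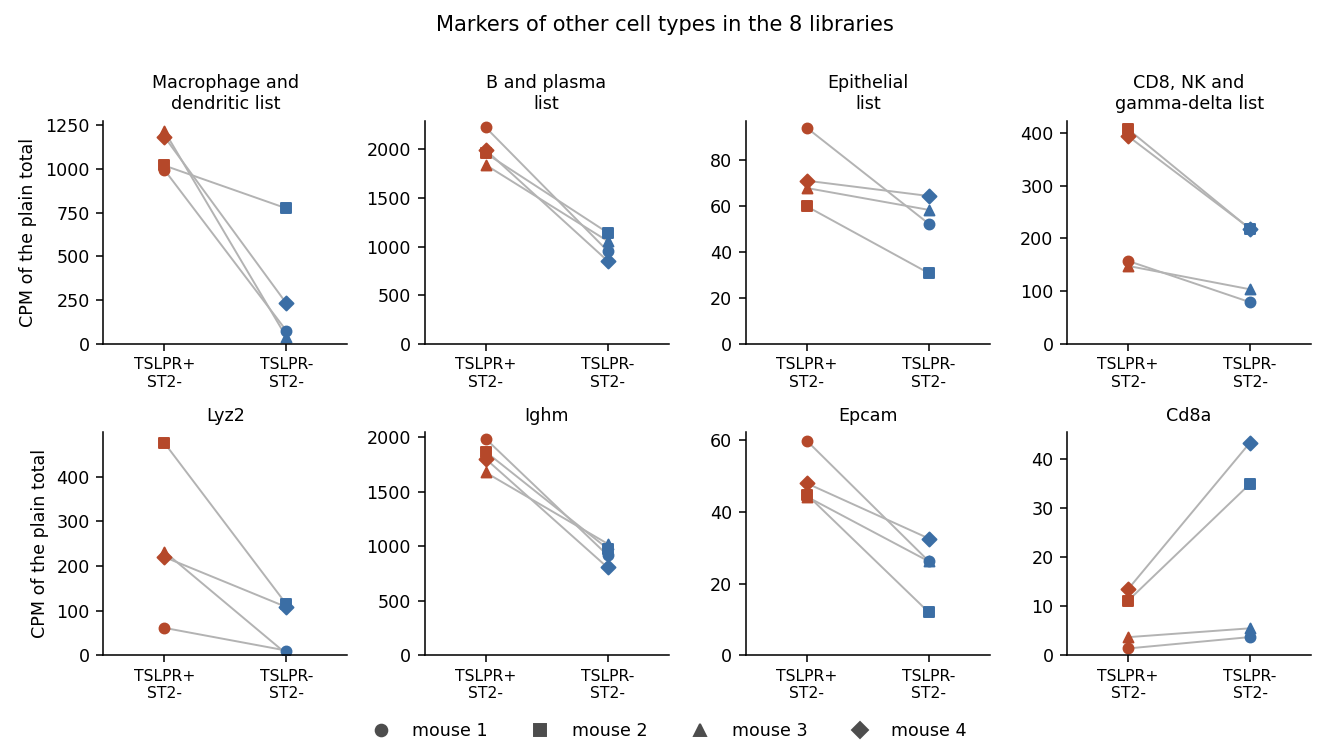
CPM of the plain library total (vertical axes, from 0) of the summed markers of 4 other cell types and of 4 single markers in TSLPR+ST2- (red, left) and TSLPR-ST2- (blue, right) Treg, with symbols and joining lines by mouse. The macrophage and dendritic sum is 996 to 1218 CPM in TSLPR+ST2- and 39.9 to 775 CPM in TSLPR-ST2- libraries.

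The same contrast was read in Treg that share no library with these 8, though the ST2+ cells come from the same mice. In cancer ST2- Treg (mice 5 to 8), 129 genes differed between TSLPR+ and TSLPR- cells (0.868% of those tested, 0.579% higher and 0.289% lower), and 38 of the 100 higher and 25 of the 81 lower genes passed there in the same direction. These 63 were 34.8% of the naive and 48.8% of the cancer calls. By sign alone, 98 of the 100 and 81 of the 81 went the same way, against 63.7% of all tested genes. In naive ST2+ Treg of mice 1 to 4, 186 genes differed (1.25%, 0.733% higher and 0.518% lower). There 38 higher and 27 lower genes were shared, which is 35.9% of the calls in ST2- and 34.9% of those in ST2+ Treg, and 98 and 80 went the same way, against 59.5% of all tested genes. Neither setting held a gene called in the opposite direction. The macrophage and dendritic marker sum was also higher in TSLPR+ than in TSLPR- cells of each mouse there. It was 2591, 892, 1784 and 3367 CPM of the plain total in cancer TSLPR+ST2- libraries of mice 5 to 8 and 308, 143, 140 and 90.5 CPM in cancer TSLPR-ST2- libraries, and 5 of the 17 markers passed as higher (median log2 fold 3.72). In naive TSLPR+ST2+ libraries of mice 1 to 4 it was 4453, 4444, 3078 and 2546 CPM, against 1009, 825, 2973 and 1355 CPM in naive TSLPR-ST2+ libraries, where 0 of the 17 passed by edgeR (median log2 fold 1.31). Its part in the shared calls was not tested.

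The genes were chosen for passing in naive ST2- Treg, and their median sizes were smaller in the other settings. The 100 higher genes had a median log2 fold of 0.74 in cancer ST2- and 0.73 in naive ST2+ Treg, against 1.12 in naive ST2- Treg, and the 81 lower ones -0.48 and -0.42 against -0.65. Icos averaged 924 ± 22.0 CPM in TSLPR+ST2- and 353 ± 84.5 CPM in TSLPR-ST2- cancer Treg (log2 fold 1.39), close to its naive values. Maf averaged 192 ± 17.1 CPM in TSLPR+ST2- and 59.2 ± 17.9 CPM in TSLPR-ST2- cancer Treg (log2 fold 1.73). Pdcd1 averaged 201 ± 87.0 and 116 ± 34.2 CPM there and did not pass (log2 fold 0.76, edgeR adjusted p = 0.156). Ly6c1 had log2 folds of -0.98 in cancer ST2- and -2.28 in naive ST2+ Treg. Il7r, which lay lower in naive TSLPR+ST2- Treg, averaged 324 ± 41.6 and 318 ± 46.5 CPM in TSLPR+ST2- and TSLPR-ST2- cancer Treg.

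The differences between settings were tested themselves. The TSLPR effect in naive ST2- Treg minus that in naive ST2+ Treg passed for 0 of 14861 genes by edgeR, with 774 at an unadjusted p below 0.05, 0 by limma-voom and 369 by DESeq2. The effect in naive minus cancer ST2- Treg likewise passed for 0 genes by edgeR, with 475 at an unadjusted p below 0.05, 0 by limma-voom and 330 by DESeq2. By chance alone, about 1 in 20 tests would have an unadjusted p below 0.05. Over the 181 genes the median half-width of the 95% interval of either difference was 0.46 on the log2 scale, so smaller differences were not resolved for most of them. The smallest adjusted p values for the first difference were 0.242, for Tagln2, an actin-bundling protein (difference 0.63), H2-Q7, a nonclassical MHC gene (-0.54), and Dusp5, an ERK phosphatase (-1.02). In the second, all adjusted p values of the genes with the smallest p were 1. For Tpi1 the log2 fold was 1.23 in naive ST2-, 0.81 in cancer ST2- and 0.40 in naive ST2+ Treg, and its difference from ST2+ Treg did not pass (0.83, adjusted p = 0.862).

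**Figure D5:**
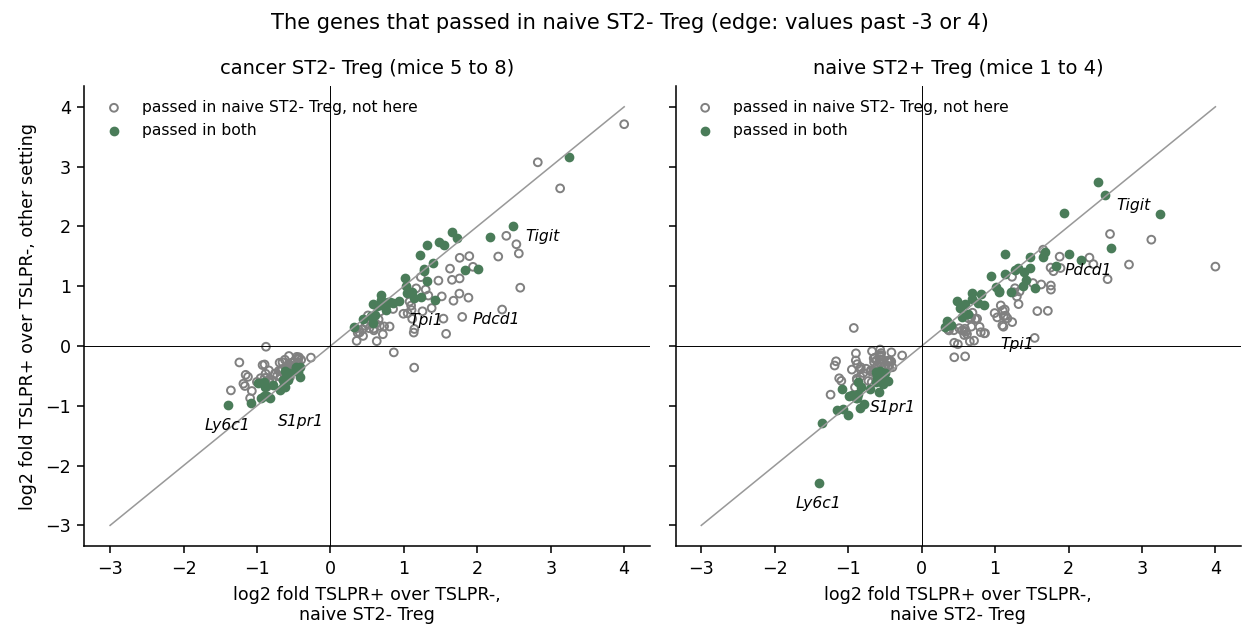
Log2 fold of TSLPR+ over TSLPR- in cancer ST2- Treg (left panel, vertical axis) and naive ST2+ Treg (right panel, vertical axis) against that in naive ST2- Treg (horizontal axes) for the 181 genes that passed in naive ST2- Treg, with the line of equal folds. Filled points passed in both settings (63 genes with cancer ST2- and 65 with naive ST2+ Treg), and values past -3 or 4 are drawn at the edge.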

How the data were processed

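The authors deposited raw counts per gene, 53465 Ensembl genes in 33 libraries on GRCm38, and SAMtools 1.2, FastQC 0.11.3, Picard 1.134 and HTSeq 0.4.1 are listed in the submitters' processing notes. The sources used here do not give the aligner, annotation release or counting strand, nor the days of sorting and sequencing. GENCODE M21 supplied gene positions and exons, and RefSeq the promoters.

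Counts were tested with edgeR 4.0.16 (R 4.3.3): TMM scaling, filterByExpr (minimum count 10, minimum total 15), a robust quasi-likelihood fit of all 32 Treg libraries with gate within status and the mouse as a block (18 residual degrees of freedom), and Benjamini-Hochberg adjustment over 14861 genes with a limit of 0.05. SE is the log2 fold divided by the root of F. All 32 libraries share 1 estimate of the spread. An exact sign-flip test over 4 mice could not go below p = 0.125.

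The number of a library is that of its animal, per the labels, which pairs the gates. Deviations from group means correlated by -0.00814 to 0.0128 between the paired libraries of a mouse. No 2 libraries had identical counts. Depth per library is given above. It describes counting error only where reads are separate molecules, which amplified reads need not be.

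The members and the 28 gene lists were chosen with earlier results of these data known. Named were Foxp3, Crlf2, Il1rl1 and Il7r, 15 genes in each direction by smallest p (group mean of 10 CPM or more on the higher side), up to 4 members of each list by p, and up to 5 genes each way per difference. Genes with no official name, pseudogenes, ribosomal, histone, immunoglobulin and receptor segment genes were not named by rank. List members named beyond these were chosen after their values were seen. Alternatives were no mouse block, only the naive libraries, only the 8 libraries, RLE size factors, DESeq2 1.42.0, no filter, a minimum count of 30, limma 3.58.1 (voom), thinned libraries, and each mouse left out. One alternative, the macrophage and dendritic marker sum as a covariate, was added after seeing the data. Some genes that the rule picks are left out of the text. Reads were not analysed here.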

Additional observations from a re-analysis of the deposited data

Results flagged for a closer look

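Of 156 groups of 4 libraries checked (genes, library measures and marker sums in each gate), 15 held 1 library far from the other 3, where chance gives about 1 in 20. In TSLPR+ST2- Treg, mouse 2 was high for Pdcd1 (247.6 CPM, others 194.8 to 201.1) and for Ccl5 (120.8 CPM, others 34.33 to 46.83). Mouse 3 was low for Rilpl2 (130.7 CPM, others 202.9 to 216.7) and high for Tsc22d3 (395.5 CPM, others 307.1 to 316.2) and Ccnd2 (1231 CPM, others 1080 to 1084). Mouse 4 was low for Igtp (545.4 CPM, others 676.5 to 680.3) and high for Il6ra (61.72 CPM, others 55.75 to 56.37), and mouse 1 was high for Itgae (327.8 CPM, others 202.8 to 209.8).

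In TSLPR-ST2- Treg, mouse 1 was low for Evl (234.7 CPM, others 276.6 to 282.6) and Rrm1 (44.34 CPM, others 58.98 to 61.32) and high for Ccr4 (48.58 CPM, others 43.17 to 43.7). Mouse 2 was high for Glrx (119.5 CPM, others 106.5 to 107.3). Mouse 3 was low for Txnip (944.7 CPM, others 984.5 to 992.6) and Cd3g (813.8 CPM, others 983.0 to 1003), and had a neutrophil marker sum of 106.0 CPM of the plain total (others 4.684 to 14.58). S100a8, a defining gene of neutrophils, had 0 counts in all 8 libraries. For each of these genes that passed the test, the gates went the same way in 4 of 4 mice, as for all 181.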

How the results depend on the processing

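All 181 genes kept their sign under every alternative that tested them, the 8-library fit testing 180. The alternatives reuse the same libraries. As all 181 went the same way in 4 of 4 mice, leaving out a mouse could hardly change a sign. With no replicate block there were 109 higher and 81 lower genes, 166 of the 181 among them, and 0 genes for either difference. The 16 naive libraries alone gave 169 lower genes, and the 8 libraries alone 199 higher and 178 lower. DESeq2 gave 486 higher and 345 lower, and 369 (ST2- minus ST2+) and 330 (naive minus cancer) for the differences, all other tools giving 0. No filter on low counts gave 66 higher genes over 31358 tested. With the macrophage and dendritic marker sum as a covariate there were 11 higher and 3 lower. Leaving out 1 mouse gave 35 to 48 higher and 19 to 41 lower genes. The causes of these shifts were not tested. Il1rl1, near 0 in both gates, changed sign without mouse 1 (log2 fold -0.43), with edgeR adjusted p = 0.936 to 1 over the 4 mice left out. RLE size factors, a minimum count of 30, thinning and limma-voom kept both counts within 1.5 times, with 181, 181, 173 and 147 of the 181 called. Depth and 4 mice limit what low genes can show.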
